A study of Mus musculus with 14 samples.

Results

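The S100, annexin and galectin genes were followed through cultured mouse small cell lung cancer cells. Members were the genes whose symbols begin with S100a, S100b, S100g or S100z, or consist of Anxa or Lgals and a number. The rule used names only and found 37 genes among the 32926 symbols of the count table: 17 S100 genes, 12 annexins and 8 galectins. The study compared neuroendocrine (NE) cells, non-neuroendocrine (Non-NE) cells and NE cells that overexpressed YAP5SA, a mutant of the transcriptional coactivator YAP that escapes phosphorylation by the Hippo kinases. Bulk mRNA was sequenced from 14 libraries in 6 groups: 3 NE, 3 Non-NE, and 2 each at days 0, 3, 7 and 21 of the YAP5SA series.

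Every line came from a lung tumour of an adult mouse of mixed strain, carried the alleles CGRPCreER/+;Rbf/f;P53f/f;Ptenf/f, and was grown in Hites medium, so the loxP-flanked genes and the Cre were shared by all groups. CGRP is a neuroendocrine peptide, and its gene's promoter drives the Cre. The mice had been given TM, as the labels abbreviate it. The YAP5SA libraries also carried Rosa26rtTA;Tet-onYAP5SA, except that the labels of day 0 replicate 1 name no transgene. In the genotype field the P53 allele is written with a number that climbs by 1 from P53 in NE replicate 1 to P59 in that day 0 library, while the source field gives P53 throughout. The inducer and whether days 3, 7 and 21 had cells without the transgene are not given in the sources used here. Nothing in the labels says that libraries of a group came from separate mice, clones or cultures, so the p-values measure the spread between these libraries, which may be technical.

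As background, S100 proteins are small dimers with EF-hand calcium-binding loops that open on binding calcium and grip target proteins, and several act outside the cell through the receptor RAGE. Annexins bind acidic phospholipids when calcium rises and take part in membrane trafficking, repair and the link between membrane and actin. The families meet in complexes, such as S100A10 with annexin A2 and S100A11 with annexin A1. Galectins bind beta-galactosides on glycoproteins, bridge surface receptors and also act inside the cell.

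Library totals ran from 6730816 to 10659524 counts. NE replicate 2 had no gene with more counts than YAP5SA day 0 replicate 1, held 85.7% as many counts, and matched it within sampling noise once scaled. These libraries share reads and are not independent. In the main tests NE replicate 2 was left out wherever the NE and YAP5SA sets entered one model, and values without it are given where they differ. Some alternative runs kept it and used all 14 libraries. Yap1 stood at 8.2 to 19.2 CPM, the count unit used throughout, which scales each library to a common total, in NE, 134.5 to 257 CPM in Non-NE, and 7.87 and 7.13 CPM at day 0. It reached 1233 and 1063 CPM at day 3, 734 and 793 at day 7, and 207 and 219 at day 21. The NE label was checked on neuroendocrine markers: Chga was at 319 to 519 CPM in NE and at most 0.425 CPM in Non-NE, and Syp at 112 to 131 CPM and at most 0.496 CPM. Ncam1 was higher in Non-NE, at 57.7 to 411 CPM against 12.6 to 60.8 CPM, and Calca, the CGRP gene, had no count in 13 libraries. Of 6 fibroblast markers, 4 were tested in Non-NE against NE and 4 were higher, with a summed level of 6151 to 14872 CPM in Non-NE against 2.7 to 7.44 CPM in NE. Col1a1 and Pdgfrb carried that sum, while Thy1 was at 0 in all 3 Non-NE libraries; at day 21, where 4 of 4 tested were higher than at day 0 and the sum was 45.8 and 51.5 CPM, Thy1 had 29.3 and 22.9 CPM. The 4 epithelial markers summed to 2124 to 2974 CPM in NE, 4.96 to 31.3 in Non-NE and 2706 to 3089 on the YAP5SA days. Of 9 leukocyte markers in the table, 3 were tested from day 0 to day 21 and 2 were higher. Their sum was 6.94 and 7.5 CPM at day 0 and 114.5 and 138 CPM at day 21, mostly Csf1r, with Ptprc at 0 in all 8 YAP5SA libraries. The part of these markers in the results was not tested. In bulk samples, fewer cells of a type and less RNA per cell cannot be told apart.

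Of the 37 members, 23 reached a mean of 10 CPM in at least 1 group, and 27 had enough counts to be tested in at least 1 comparison. In Non-NE against NE, 24 members passed the filter on low counts, 17 were higher and 5 lower (edgeR's quasi-likelihood test, Benjamini-Hochberg adjusted p under 0.05). Among all 12966 genes of that fit 42.8% were called, 20% higher and 22.8% lower. From day 0 to day 21, 19 of 26 tested members were higher and 2 lower, where 71.7% of 13996 genes were called, 37.7% higher and 34% lower. The median fitted log2 change of the tested members was 3.13 in Non-NE and 3.06 at day 21, against -0.02 and 0.02 for all genes tested. Setting the members with no or few counts in a group at their bounds left both member medians as they were.

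Of the 24 members tested in both, 14 were called higher in both: S100a4, S100a6, S100a10, S100a11, S100a13, S100a16, Anxa2, Anxa3, Anxa5, Anxa6, Anxa7, Anxa8, Lgals3 and Lgals9. Lgals4 was lower in both. S100a1 and S100a14 were lower in Non-NE and higher at day 21. Lgals1, Lgals8 and Anxa9 were higher in Non-NE and not called at day 21, Anxa11 and Lgals12 were lower in Non-NE and not called at day 21, Anxa1 was called only at day 21, where it was higher, and Anxa4 only at day 21, where it was lower. The NE and day 0 groups share reads through 1 library, so the counts are given side by side and no overlap was tested. Of all genes tested, 20% were higher in Non-NE and 37.7% at day 21. The share of all genes higher in both was not computed, so the 14 cannot be set against it.

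**Figure D1:**
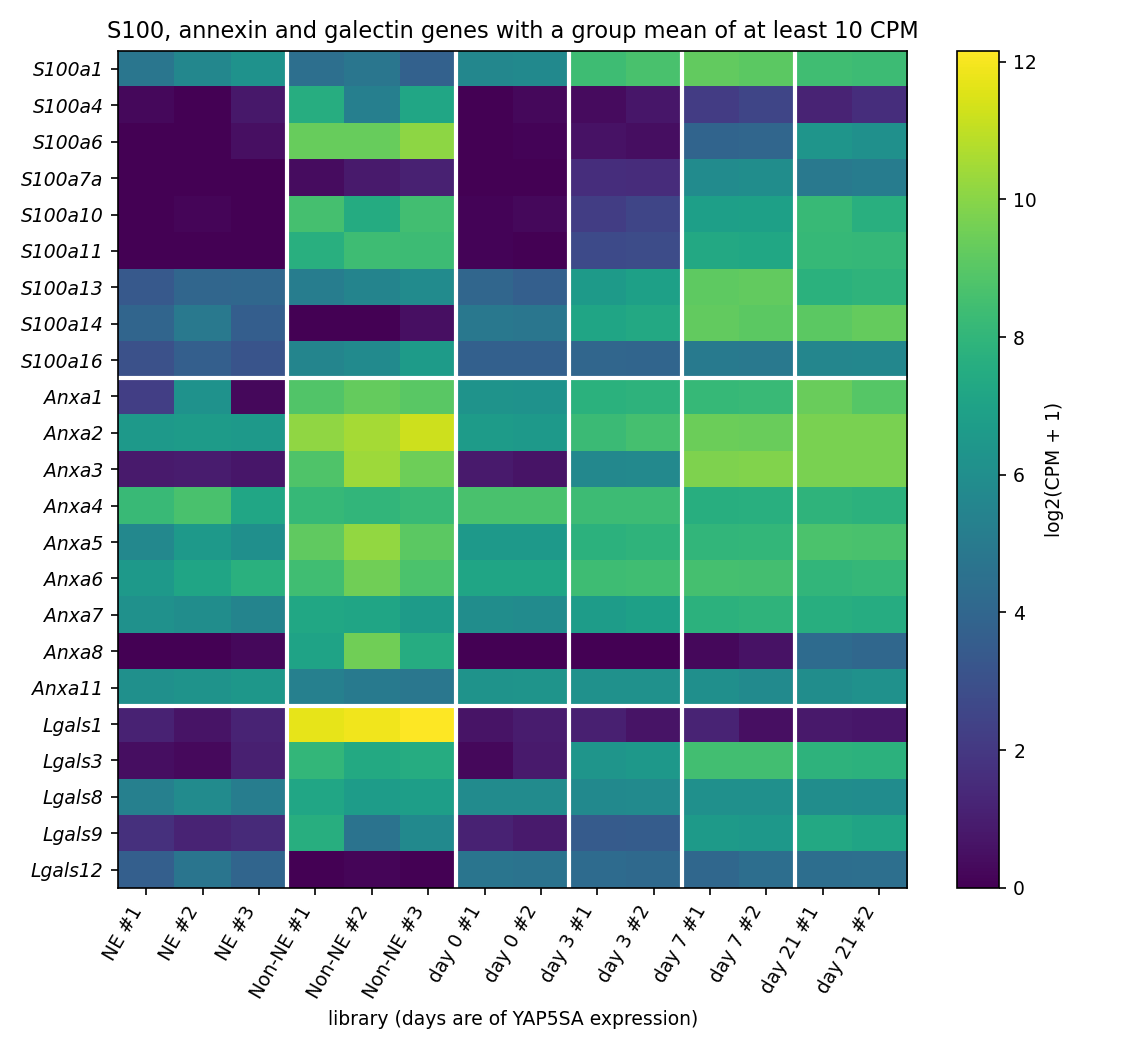
Levels of the 23 members with a group mean of at least 10 CPM, as log2(CPM + 1), with 1 column per library and 1 row per gene, ordered by family and number. Lgals1 is high in the 3 Non-NE libraries and at most 1.32 CPM in the others, and S100a14 shows the opposite contrast between Non-NE and the late YAP5SA days.

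**Figure D2:**
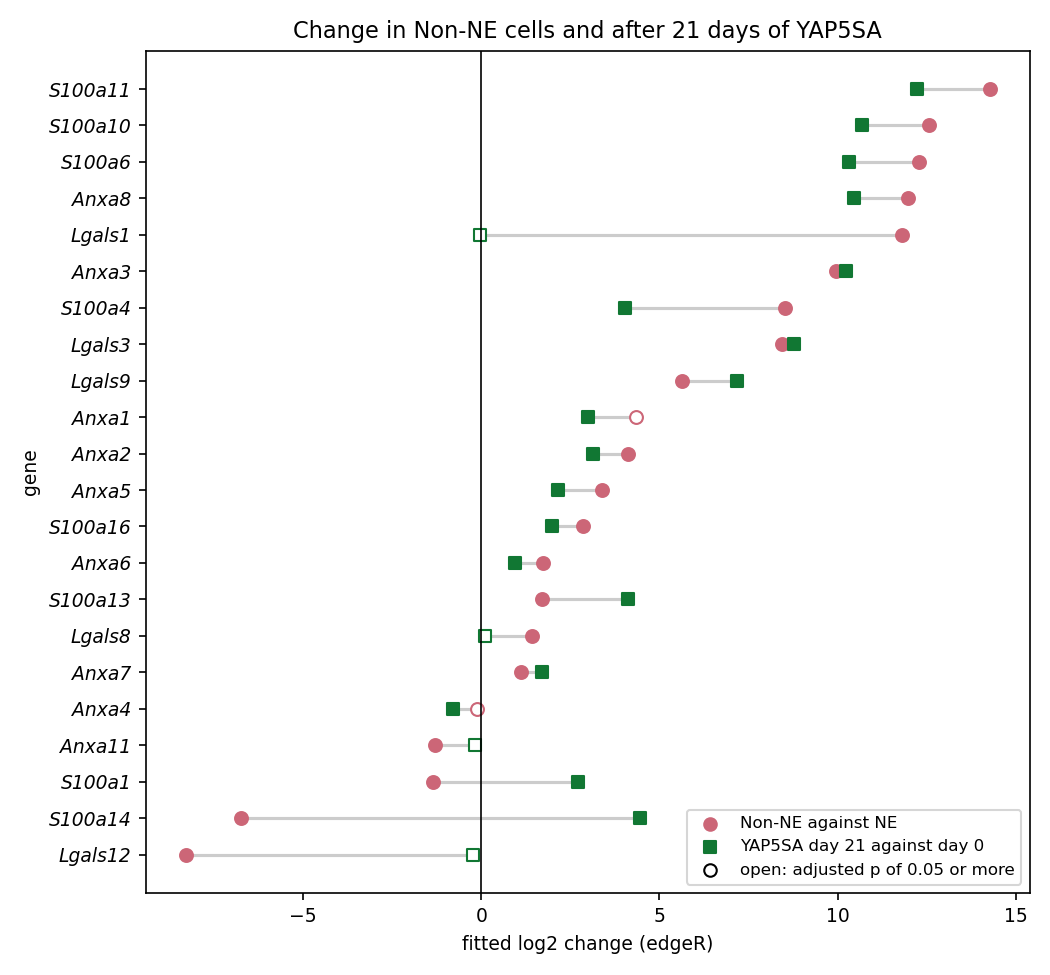
Fitted log2 change of 22 members in Non-NE against NE (circles) and from day 0 to day 21 (squares), filled where the adjusted p was under 0.05. Points of genes with no or few counts in a group depend on the fit's prior count and are bounds or ratios in the text. S100a1 and S100a14 lie on opposite sides of 0 in the 2 comparisons, and Lgals1 lies at 11.82 in one and at -0.03 in the other.

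Most S100 genes sit in one cluster on mouse chromosome 3 (mm10, GRCm38). In GENCODE M21, 12 of them lie within chr3:90511034-90695721, from S100a1 to S100a9, and S100a11 and S100a10 lie further along within chr3:93520488-93564643. Of 8 S100 genes tested in Non-NE against NE, 6 were higher and 2 lower, where 20% of all genes tested were higher and 22.8% lower. From day 0 to day 21, 10 of 10 tested S100 genes were higher, where 37.7% of all genes were higher and 34% lower. Neighbours in this cluster did not move as a block in Non-NE against NE. In Non-NE cells, S100a1 and S100a14 were lower than in NE while S100a13 and S100a16, which lie next to them, were higher. S100a4 and S100a6 went from near 0 to high levels, and S100a5 between them stayed at or below 0.661 CPM in all libraries. S100a2, S100a8 and S100a9 had at most 4 counts in any library, and S100z, on chromosome 13, had none in any.

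**Figure D3:**
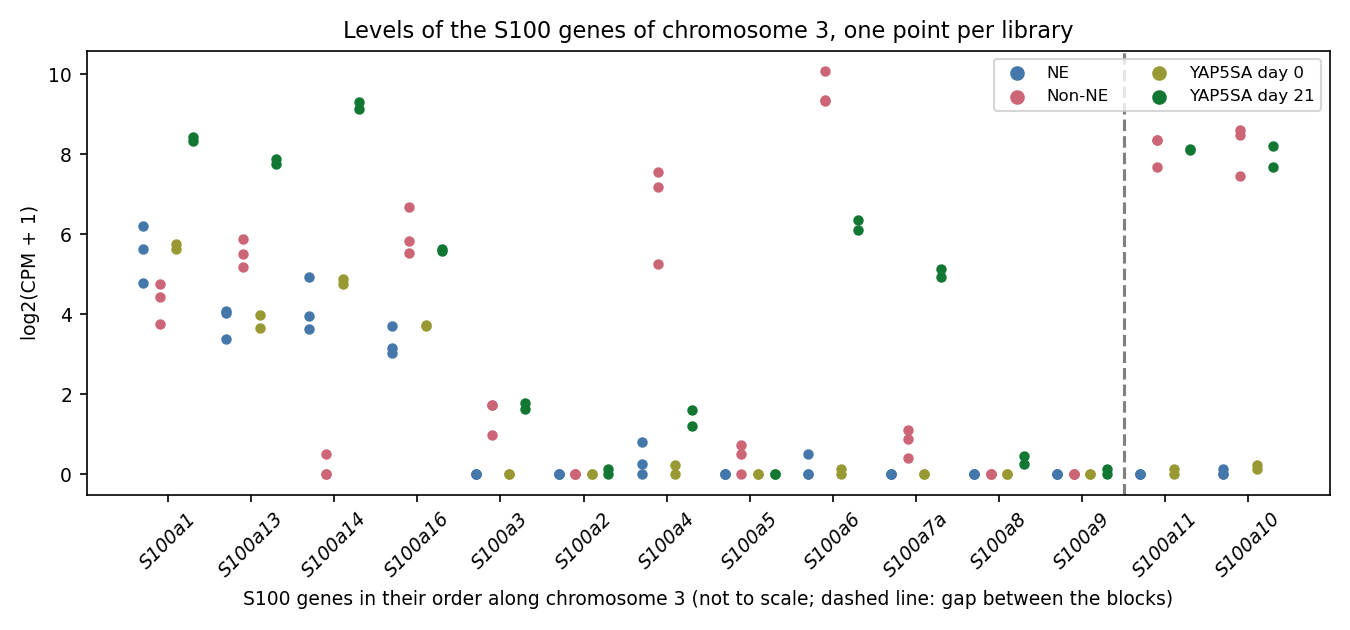
Levels of the 14 S100 genes of chromosome 3 in their order along it, as log2(CPM + 1), with 1 point per library for NE, Non-NE, YAP5SA day 0 and day 21. Of these groups, S100a1, S100a13 and S100a14 are highest at day 21, S100a4 and S100a6 are highest in Non-NE, and S100a11 and S100a10 are near 0 in NE and day 0 and high in both others.

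S100a1, best known from heart muscle, and S100a13, which assists the unconventional secretion of FGF1, lie head to head. S100a1 reads from the minus strand (chr3:90511034-90514392) and S100a13 from the plus strand (chr3:90514435-90524581), with 42 bases between the annotated genes and 104 between the RefSeq start sites. S100a1 stood at 26.4, 48.3 and 72.6 CPM in NE and at 20.7, 26 and 12.6 CPM in Non-NE. It stood at 48.3 and 53.5 CPM at day 0, 334 and 411 at day 3, 609 and 554 at day 7, and 344 and 319 at day 21. The lowest NE library and the highest Non-NE library lay close together without overlapping, and each later YAP5SA day lay well above day 0. S100a1 was 2.57-fold lower in Non-NE (log2 -1.36, SE 0.44, adjusted p = 0.0429, edgeR) and 6.61-fold higher at day 21 than at day 0 (adjusted p = 4.1e-18). The Non-NE call was lost when any 1 of 5 libraries was left out, all but NE replicate 1 (adjusted p from 0.0538 to 0.131).

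S100a13 was at 9.37, 15.3 and 15.9 CPM in NE and at 35, 44.2 and 57.6 CPM in Non-NE. It was at 14.9 and 11.7 CPM at day 0, 99.2 and 118 at day 3, 563 and 608 at day 7, and 214 and 237 at day 21. None of these groups overlapped NE except day 0. S100a13 was 3.28-fold higher in Non-NE (log2 1.71, SE 0.33, adjusted p = 0.00563, edgeR) and 17.2-fold higher at day 21 (adjusted p = 1.23e-20). The head-to-head pair moved in opposite directions in Non-NE and upward together on the YAP5SA days. Their ratio within a library, S100a1 over S100a13 in CPM, was 2.81, 3.16 and 4.57 in NE but 0.59, 0.588 and 0.219 in Non-NE. Along the YAP5SA days the ratio was 3.24 and 4.59, then 3.37 and 3.49, then 1.08 and 0.912, and 1.61 and 1.35 at day 21. The ratio at day 3 lay within the day 0 range, when both genes had already risen, and was lower at day 7, when S100a13 had risen further.

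RefSeq promoter windows of 300 bases, from 250 bases before a gene's start to 50 after it (GRCm38.p6), were matched for 29 of the 37 members; S100a2, S100a10, S100a14, Anxa3, Anxa6, Anxa13, Lgals1 and Lgals12 had none. The windows were searched on both strands for GGAATG, the core bound by the TEAD factors that carry YAP to DNA, and for TGANTCA, the AP-1 motif. The windows of 4 members held GGAATG (S100a3, S100a7a, S100z and Anxa1) and those of 4 held TGANTCA (S100a11, S100a16, Anxa2 and Anxa10). Of all 32851 windows 14.7% held the first and 7.81% the second, against 4 of the 36 windows of these 29 members for each. A match is a description of letters, not a binding site. The 4 windows printed here were chosen after the values were seen: that of S100a13, because it also holds the start of S100a1 on the other strand, at position 146; that of S100a7a, which held 3 TEAD cores; that of S100a4, a gene high in Non-NE cells; and that of S100a11, which held 2 AP-1 motifs. All 4 are on the plus strand, written 5′ to 3′, with GGAATG or CATTCC and TGANTCA in capitals, and the motifs share no base. They span chr3:90514185-90514484, chr3:90654052-90654351, chr3:90603520-90603819 and chr3:93520246-93520545 in that order.
S100a13: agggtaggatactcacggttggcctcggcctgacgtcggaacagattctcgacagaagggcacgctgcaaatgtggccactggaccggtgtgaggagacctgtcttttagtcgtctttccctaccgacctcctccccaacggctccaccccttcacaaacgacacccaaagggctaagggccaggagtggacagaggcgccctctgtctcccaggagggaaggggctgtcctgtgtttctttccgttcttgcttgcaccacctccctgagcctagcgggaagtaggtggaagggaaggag
S100a7a: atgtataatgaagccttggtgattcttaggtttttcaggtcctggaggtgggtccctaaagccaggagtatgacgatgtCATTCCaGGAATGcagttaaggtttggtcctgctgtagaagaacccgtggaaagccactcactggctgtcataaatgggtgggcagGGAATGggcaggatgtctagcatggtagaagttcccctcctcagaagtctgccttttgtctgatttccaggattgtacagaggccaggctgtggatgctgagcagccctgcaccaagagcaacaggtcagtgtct
S100a4: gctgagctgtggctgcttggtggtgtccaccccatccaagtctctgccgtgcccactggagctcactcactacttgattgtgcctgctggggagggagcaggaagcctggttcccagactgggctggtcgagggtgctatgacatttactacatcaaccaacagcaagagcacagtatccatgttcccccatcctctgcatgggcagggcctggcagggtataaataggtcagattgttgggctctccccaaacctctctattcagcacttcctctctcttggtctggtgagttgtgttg
S100a11: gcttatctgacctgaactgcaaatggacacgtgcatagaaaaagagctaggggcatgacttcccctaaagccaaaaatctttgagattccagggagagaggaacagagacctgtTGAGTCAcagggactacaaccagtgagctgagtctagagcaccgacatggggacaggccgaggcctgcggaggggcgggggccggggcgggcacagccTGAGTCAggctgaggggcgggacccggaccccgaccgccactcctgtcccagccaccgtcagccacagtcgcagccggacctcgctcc

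S100a14, a member found mainly in epithelia, differed in direction between the Non-NE cells and the YAP5SA series. It stood at 14.5, 29.5 and 11.5 CPM in NE and at 0, 0 and 0.425 CPM in Non-NE. It stood at 28.6 and 26.1 CPM at day 0, 140.2 and 159 at day 3, 599 and 553 at day 7, and 555 and 628 at day 21. Every NE library lay above every Non-NE library, and every library from day 3 on lay above all of them. S100a14 was 108-fold lower in Non-NE (log2 -6.76, SE 1.06, adjusted p = 0.00244, edgeR) and 21.9-fold higher at day 21 (log2 4.46, SE 0.10, adjusted p = 1.62e-22). The Non-NE group held 4 counts, all in replicate 3, so the size of the first fold is uncertain. The epithelial marker sum moved the same way as S100a14 in Non-NE; from day 0 to day 21 the sum was between 2706 and 3089 CPM in every library. S100a16, its neighbour, had 7.15, 12 and 7.99 CPM in NE, 45.3, 56.1 and 101 in Non-NE, 12.3 and 12.1 at day 0, 15.3 and 14.5 at day 3, 31.7 and 29.3 at day 7, and 46.8 and 48.2 at day 21. S100a16 was higher in Non-NE (7.24-fold, adjusted p = 0.00176) and at day 21 (3.95-fold, adjusted p = 2.53e-14), and its day 21 values fell within the Non-NE range.

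S100a4 (metastasin) and S100a6 (calcyclin), both known from mesenchymal and motile cells, were the S100 genes called lower at day 21 than in Non-NE. S100a6 had 0, 0 and 0.426 CPM in NE and 653, 639 and 1083 CPM in Non-NE. It had 0 and 0.0925 CPM at day 0, 0.486 and 0.367 at day 3, 14.2 and 15.1 at day 7, and 81.2 and 67.6 at day 21. The levels climbed on the YAP5SA days without reaching the Non-NE range. S100a6 was 5032-fold higher in Non-NE (log2 12.30, SE 0.85, adjusted p = 9.96e-05, edgeR). At day 21 its ratio to day 0, which held 1 count, was 1599 (95% counting interval 287 to 63194, adjusted p = 2.42e-20). S100a4 had 0.193, 0 and 0.746 CPM in NE and 187, 37.5 and 144 CPM in Non-NE, against 0 and 0.185 CPM at day 0, 0.291 and 0.643 at day 3, 3.46 and 4.88 at day 7, and 1.33 and 2.03 at day 21. No YAP5SA library came near the Non-NE libraries. S100a4 was 365-fold higher in Non-NE (log2 8.51, SE 1.04, adjusted p = 0.000995), and its day 21 ratio to day 0, which held 2 counts, was 18.1 (95% counting interval 4.64 to 155, adjusted p = 2.8e-05). S100a4 shares exon bases with Gm42674 on the same strand, which the counting could split.

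S100a10 (p11, the partner of annexin A2) and S100a11 (a partner of annexin A1) had almost no counts in NE and at day 0 and were high in both other states. S100a11 had 0 CPM in all 3 NE libraries and 205, 329 and 324 CPM in Non-NE. It had 0.0937 and 0 CPM at day 0, 5.63 and 6.06 at day 3, 159 and 149 at day 7, and 281 and 275 at day 21. The day 21 values lay inside the Non-NE range. Against a floor of 3 counts over the NE group, S100a11 was at least 2844-fold higher in Non-NE (adjusted p = 0.000108, edgeR); its day 21 ratio to the single day 0 count was 5972 (95% counting interval 1071 to 235908). S100a10 had 0, 0.109 and 0 CPM in NE, 386, 176 and 354 in Non-NE, 0.0937 and 0.185 at day 0, 3.59 and 4.78 at day 3, 116 and 118 at day 7, and 293 and 203 at day 21. Its ratio was 8682 in Non-NE against 1 NE count (95% counting interval 1558 to 342972, adjusted p = 4.7e-05) and 1778 at day 21 against 3 day 0 counts (608 to 8623, adjusted p = 2.77e-13). These intervals cover counting error only.

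S100a7a, the mouse relative of psoriasin, was high on the late YAP5SA days and near 0 elsewhere. It had 0 CPM in the NE and day 0 libraries and 0.331, 0.855 and 1.17 CPM in Non-NE. It had 2.04 and 1.93 CPM at day 3, 57.2 and 61.1 at day 7, and 29.3 and 33.8 at day 21. All libraries of days 7 and 21 lay above all others. Against a floor of 3 counts at day 0, S100a7a was at least 226-fold higher at day 21 (adjusted p = 7.54e-18, edgeR), and it was 37.8-fold higher at day 21 than in Non-NE (adjusted p = 7.86e-06). S100a3, with at most 4.37 CPM, was absent from NE and day 0 and had 0.977 to 2.34 CPM in Non-NE and 2.48 and 2.13 at day 21. S100g, the calcium carrier calbindin-D9k, split the NE group itself at 13.6, 0.437 and 9.38 CPM, and was at most 0.555 CPM elsewhere. The low NE library is replicate 2, which shares reads with day 0 replicate 1, where S100g was at 0.375 CPM. S100b, a glial member, was at most 2.44 CPM in any library. S100a8 and S100a9, the neutrophil pair calprotectin, had no counts in NE, Non-NE and days 0 and 3.

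Among annexins, 7 of 10 tested were higher in Non-NE and 1 lower, and 7 of 10 were higher at day 21 and 1 lower. Of all genes tested, 20% were higher and 22.8% lower in Non-NE, and 37.7% and 34% at day 21. Anxa2, the membrane and actin linker that pairs with S100a10, had 90.5, 99.8 and 90.1 CPM in NE and 1142, 1458 and 2402 CPM in Non-NE. It had 100.2 and 93 CPM at day 0, 307 and 376 at day 3, 677 and 670.4 at day 7, and 846 and 832 at day 21. The late YAP5SA libraries lay between NE and Non-NE. Anxa2 was 17.4-fold higher in Non-NE (log2 4.12, SE 0.35, adjusted p = 0.000201, edgeR) and 8.82-fold higher at day 21 (log2 3.14, SE 0.09, adjusted p = 3.98e-20). In contrast to S100a10, it had counts in every NE library.

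Anxa3 moved most among annexins with counts in every group. It had 0.869, 0.875 and 0.639 CPM in NE and 449, 1309 and 721 CPM in Non-NE. It had 0.844 and 0.555 CPM at day 0, 50.9 and 52.2 at day 3, 896 and 915 at day 7, and 844 and 849 at day 21. From day 7 its level lay inside the Non-NE range. Anxa3 was 992-fold higher in Non-NE (log2 9.95, SE 0.59, adjusted p = 5.44e-05, edgeR) and 1209-fold higher at day 21 (log2 10.24, SE 0.15, adjusted p = 1.14e-25). Anxa8 had 0, 0 and 0.213 CPM in NE and 131, 727 and 181 CPM in Non-NE, and it had no count at days 0 and 3, 0.203 and 0.508 CPM at day 7, and 17.9 and 15.6 CPM at day 21. It appeared later than Anxa3 and stayed below all Non-NE libraries. Against 2 NE counts its Non-NE ratio was 5157 (95% counting interval 1427 to 42592, adjusted p = 0.000543), and it was at least 120.0-fold higher at day 21 than at day 0 (floor of 3 counts, adjusted p = 2.51e-14).

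Anxa1, a ligand of formyl peptide receptors with anti-inflammatory action, varied widely within the NE group. It had 3.77, 73.4 and 0.213 CPM in NE and 461, 631 and 525 CPM in Non-NE. It had 75.2 and 72 CPM at day 0, 215 and 232 at day 3, 281 and 297 at day 7, and 656 and 493 at day 21. NE replicate 2, which shares reads with day 0, stood with the day 0 libraries, and all Non-NE and day 21 libraries lay above all NE and day 0 libraries. In Non-NE against NE it was not called (log2 4.34, SE 1.56, adjusted p = 0.062, edgeR); without NE replicate 2 it was (log2 8.03, adjusted p = 0.00438). From day 0 to day 21 it was 7.92-fold higher (log2 2.99, SE 0.11, adjusted p = 4.4e-17).

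Anxa5, the phosphatidylserine binder used to stain dying cells, had 50.6, 95 and 65.4 CPM in NE, 586, 1159 and 549 in Non-NE, 94.5 and 93.4 at day 0, 222 and 238 at day 3, 258 and 263 at day 7, and 423 and 404 at day 21. It was 10.5-fold higher in Non-NE (adjusted p = 0.000917, edgeR) and 4.47-fold higher at day 21 (adjusted p = 1.62e-18), with no overlap between the groups compared. Anxa6, which scaffolds membrane and endosome contacts, had 92.6, 141 and 210.5 CPM in NE, 349.6, 738 and 422 in Non-NE, 140.4 and 139.8 at day 0, 336 and 342 at day 3, 377 and 366 at day 7, and 253 and 274 at day 21. It was 3.3-fold higher in Non-NE (adjusted p = 0.0134) and 1.91-fold higher at day 21 (adjusted p = 2.36e-11). Anxa7 (synexin) had 70.3, 60.9 and 44.4 CPM in NE, 151, 141 and 103 in Non-NE, 61.2 and 57.8 at day 0, 104 and 120.3 at day 3, 223 and 239 at day 7, and 199 and 185 at day 21. It was 2.18-fold higher in Non-NE (adjusted p = 0.00991) and 3.28-fold higher at day 21 (adjusted p = 2.07e-15). The last 2 annexins had their highest YAP5SA level at day 7.

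Anxa4 and Anxa11 did not follow the others. Anxa4, an annexin of secretory epithelia, had 306, 411 and 144 CPM in NE and 280.0, 253 and 288 in Non-NE, and it had 409.9 and 400.1 CPM at day 0, 319.6 and 323 at day 3, 194 and 199.9 at day 7, and 239 and 222 at day 21. The Non-NE libraries lay inside the NE range (log2 -0.11, 95% confidence interval -0.98 to 0.75, adjusted p = 0.821, edgeR), whereas every later day lay below day 0. At day 21 Anxa4 was 1.73-fold lower (log2 -0.79, SE 0.07, adjusted p = 3.81e-10). Anxa11, which links RNA granules to lysosomes, had 67.7, 74.7 and 84.6 CPM in NE and 38.2, 30.4 and 27.3 in Non-NE. It had 74.5 and 77.2 CPM at day 0, 70.5 and 70.8 at day 3, 65.3 and 56.1 at day 7, and 62.3 and 71.1 at day 21. It was 2.45-fold lower in Non-NE (log2 -1.29, SE 0.21, adjusted p = 0.00328) and not called at day 21 (log2 -0.16, 95% confidence interval -0.35 to 0.02, adjusted p = 0.101), although it was called lower with library totals alone as the scale (adjusted p = 0.00335) or without day 21 replicate 2 (0.0168). Anxa9 was higher in Non-NE (2.67-fold, adjusted p = 0.0404) at no more than 9.34 CPM, while Anxa10 and Anxa13 had at most 1.39 CPM.

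Among galectins, 4 of 6 tested were higher in Non-NE and 2 lower, and 2 of 6 were higher at day 21 and 1 lower. Of all genes tested, 20% were higher and 22.8% lower in Non-NE, and 37.7% and 34% at day 21. The 2 of 6 galectins higher at day 21 lie near that share. Lgals1, the dimeric galectin-1 of connective tissue and muscle, had 1.26, 0.547 and 1.28 CPM in NE and 3297, 3831 and 4574 CPM in Non-NE. It had 0.562 and 0.925 CPM at day 0, 1.07 and 0.551 at day 3, 1.32 and 0.407 at day 7, and 0.762 and 0.678 at day 21. Every YAP5SA library was at or below 1.32 CPM, on every day. Lgals1 was 3624-fold higher in Non-NE (log2 11.82, SE 0.47, adjusted p = 2.51e-05, edgeR) and was called at no step of the YAP5SA days (day 21 against day 0, log2 -0.03, 95% confidence interval -1.24 to 1.19, adjusted p = 0.97). The fibroblast marker sum, 6151 to 14872 CPM in Non-NE and 45.8 and 51.5 CPM at day 21, moved with Lgals1 in Non-NE; its part in the result was not tested.

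Lgals3, the galectin with a self-associating tail, was near 0 in NE and at day 0 and high in both other states. It had 0.386, 0.219 and 1.07 CPM in NE and 267, 165 and 183 CPM in Non-NE. It had 0.187 and 0.833 CPM at day 0, 79.3 and 88.7 at day 3, 361 and 352 at day 7, and 231 and 226 at day 21. Day 21 lay inside the Non-NE range and day 7 above it. Lgals3 was 349-fold higher in Non-NE (log2 8.45, SE 0.53, adjusted p = 6.59e-05, edgeR) and 442-fold higher at day 21 (log2 8.79, SE 0.18, adjusted p = 1.86e-23). Lgals3 is also a macrophage gene, and the leukocyte marker sum went from 6.94 and 7.5 CPM at day 0 to 114.5 and 138 CPM at day 21 with Ptprc at 0; at day 3 that sum was 5.63 and 6.8 CPM. The part of leukocytes in the Lgals3 level was not tested.

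Lgals9, a galectin with a pair of linked sugar-binding domains, had 2.22, 1.31 and 1.71 CPM in NE and 198, 23.9 and 52.8 CPM in Non-NE. It had 1.22 and 0.833 CPM at day 0, 10.4 and 10.5 at day 3, 99 and 88.6 at day 7, and 161 and 135 at day 21. Non-NE replicate 1 stood above the other Non-NE libraries. Lgals9 was 49.9-fold higher in Non-NE (log2 5.64, SE 0.89, adjusted p = 0.0028, edgeR) and 145-fold higher at day 21 (log2 7.18, SE 0.17, adjusted p = 6.98e-22). Lgals8, which marks damaged endosomes, had 37.9, 57.0 and 34.6 CPM in NE, 147, 103 and 112 in Non-NE, 57.5 and 57.5 at day 0, 53.2 and 54.6 at day 3, 67.3 and 67.9 at day 7, and 61.7 and 59.3 at day 21. It was 2.7-fold higher in Non-NE (log2 1.43, SE 0.26, adjusted p = 0.00501) and not called at day 21 (log2 0.10, 95% confidence interval -0.08 to 0.27, adjusted p = 0.315). Lgals8 shares exon bases with Heatr1 on the opposite strand.

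Lgals12, known from fat cells, had 11.7, 25.1 and 14.7 CPM in NE and 0, 0.122 and 0 CPM in Non-NE. It had 25.5 and 23.5 CPM at day 0, 18.0 and 16.9 at day 3, 16 and 19.8 at day 7, and 20.3 and 20.7 at day 21. NE cells thus held it at 401 times the level of Non-NE, which had 1 count (95% counting interval 71.5 to 15851, adjusted p = 0.000498, edgeR). It was 1.42-fold lower at day 3 than at day 0 (adjusted p = 0.00157) and not called at day 21 (log2 -0.23, SE 0.12, adjusted p = 0.0867), though it was with library totals alone (adjusted p = 0.00824). Lgals4 was lower in Non-NE (3.69-fold, adjusted p = 0.0115) and at day 21 (1.89-fold, adjusted p = 0.000277) at no more than 9.09 CPM in any library. It has a near-identical copy in some mouse strains, Lgals6, so its counts are uncertain. Lgals2 had at most 2.55 CPM and Lgals7 at most 0.219 CPM.

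The timing of the change differed among members. From day 0 to day 3, 17 of 26 tested members were higher and 2 lower. Of 13996 genes 48.6% were called at that step, 26.2% higher and 22.4% lower. From day 3 to day 7, 20 members were higher and 2 lower, where 55.6% of genes were called, 29.5% higher and 26.1% lower. From day 7 to day 21, 10 members were higher and 9 lower, where 50.3% of genes were called, 26.1% higher and 24.2% lower. At all 3 steps 7 members rose: S100a6, S100a10, S100a11, Anxa1, Anxa2, Anxa5 and Lgals9. For S100a6 the first of these steps is 9 counts against 1, and its call was lost with DESeq2 (adjusted p = 0.0889) and without day 0 replicate 1, day 3 replicate 1 or day 3 replicate 2 (adjusted p from 0.0538 to 0.176). Another 7 rose to day 7 and then fell: S100a1, S100a3, S100a7a, S100a13, Anxa7, Anxa9 and Lgals3. The Anxa7 fall was small (log2 -0.26, and -0.21 without day 7 replicate 2). On the YAP5SA days S100a3 stood at no more than 4.37 CPM and Anxa9 at no more than 5.18 CPM. S100a14 and Anxa3 rose at both early steps and were not called from day 7 to day 21, when their log2 changes were 0.05 and -0.09. S100a4, S100a16, Anxa8 and Lgals8 were first called between days 3 and 7. Lgals1 and Anxa11 were called at no step.

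The early risers were large. Lgals3 was 159-fold higher at day 3 than at day 0 (log2 7.31, adjusted p = 7.42e-20, edgeR) and Anxa3 72.1-fold higher (log2 6.17, adjusted p = 3.79e-19). S100a1 and S100a13 were 7.27-fold and 8.12-fold higher at that step, S100a14 5.43-fold and Anxa2 3.51-fold. From day 3 to day 7, S100a6 gained 34.2-fold, S100a7a 30.1-fold, S100a10 28.2-fold, S100a11 26.7-fold and Anxa3 17.8-fold, while Anxa1 gained only 1.31-fold. From day 7 to day 21, Anxa8 was 45.9-fold higher and S100a6 5.1-fold higher, while S100a13 was 2.58-fold lower, S100a7a 1.86-fold lower and S100a1 1.74-fold lower. Libraries of a day differed little, so changes as small as 1.15-fold, that of Anxa5 from day 3 to day 7, were called, though that call was lost without either day 7 library or day 3 replicate 1 (adjusted p from 0.0781 to 0.133). With one model over all libraries except NE replicate 2, whose spread is larger, 11, 12 and 3 members were called at the 3 steps and 21 from day 0 to day 21. Of its 14820 genes, that model called 1296, 1698 and 742 at the steps and 5085 from day 0 to day 21. The model of the days alone called 6804, 7785 and 7042 of 13996 genes at the steps.

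**Figure D4:**
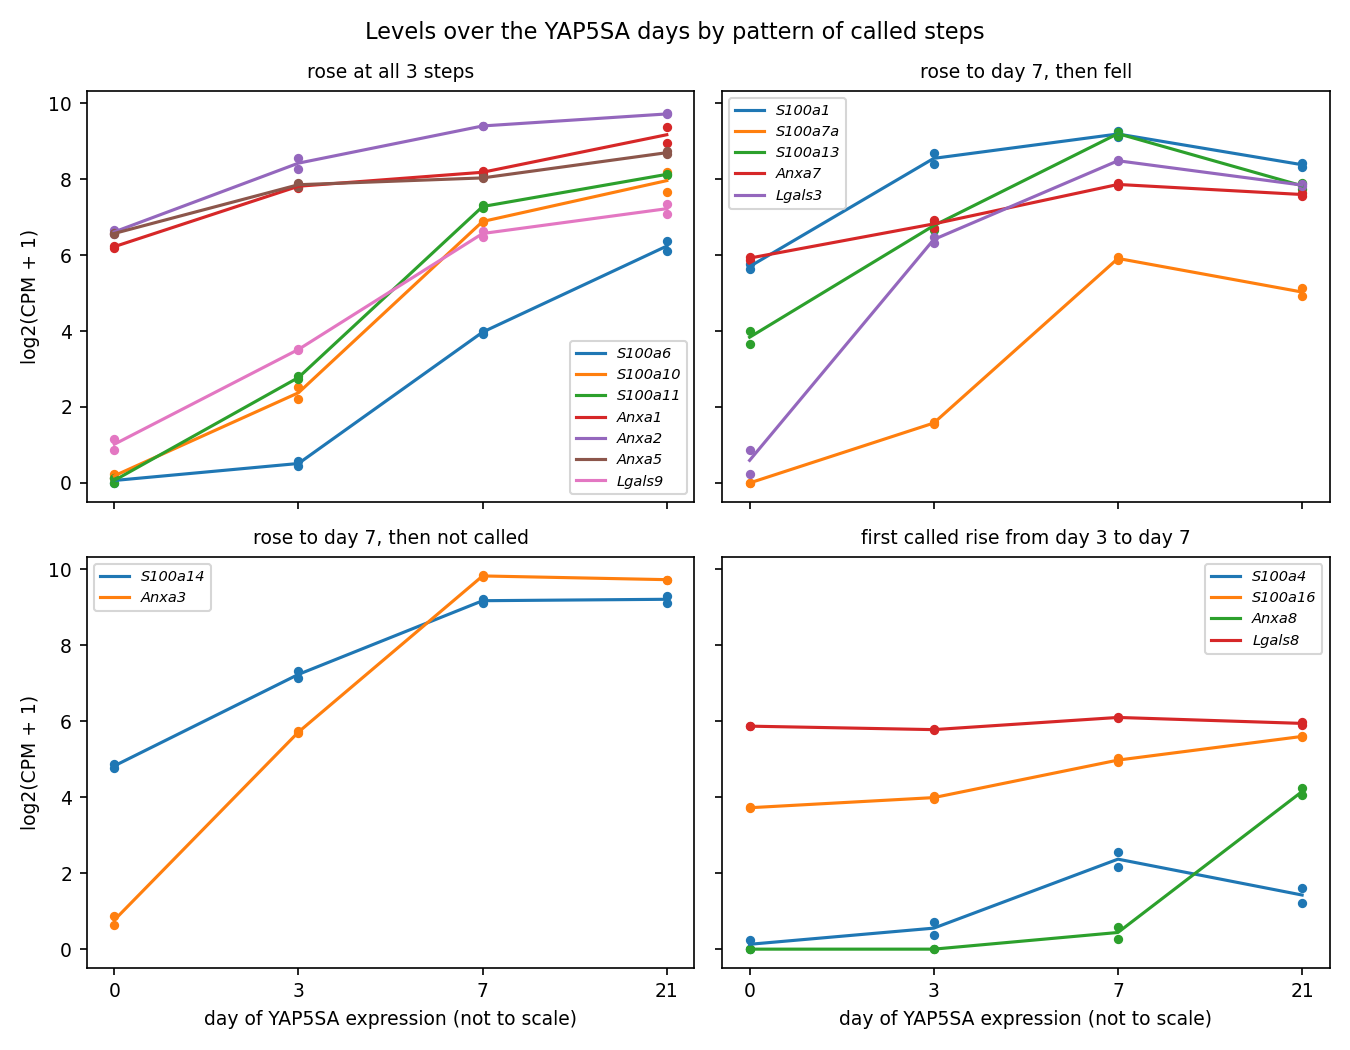
Levels on the YAP5SA days as log2(CPM + 1), with 1 point per library and a line through the log2(mean + 1) of each day, for members with a group mean of at least 10 CPM, in 4 panels by the pattern of called steps. In the first panel all lines climb to day 21, in the second all peak at day 7, and Anxa8 in the last panel is near 0 until day 7.

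Day 21 libraries were then set against the Non-NE libraries, which also compares 2 sets of lines. Of 27 tested members, 8 were higher at day 21 and 9 lower, where 55.3% of 14820 genes were called, 30.8% higher and 24.5% lower. Day 21 was lower in Lgals1 (5318-fold, adjusted p = 3.13e-08, edgeR), S100a4 (72.4-fold, adjusted p = 0.000128), Anxa8 (20.7-fold, adjusted p = 0.00257) and S100a6 (10.6-fold, adjusted p = 3.57e-05). It was also lower in Anxa9, Anxa2, Lgals8, Anxa6 and Anxa5, by 1.85-fold to 2.53-fold. Day 21 was higher in S100a14 (3279-fold against 4 Non-NE counts, adjusted p = 2.99e-08), S100a7a, S100a1 (16.8-fold, adjusted p = 1.92e-05), S100a13 (4.93-fold, adjusted p = 3.17e-05), Lgals12, Lgals4, Anxa11 and Anxa7. No difference was called in S100a11 (log2 -0.04, 95% confidence interval -0.54 to 0.46), S100a10 (-0.30, -1.01 to 0.41), Anxa3 (0.03, -0.72 to 0.79), Lgals3 (0.16, -0.48 to 0.79) or Anxa1 (0.09, -0.90 to 1.09). These intervals do not show equal levels. The calls of Anxa2 and Anxa5 were lost without either day 21 library (adjusted p from 0.06 to 0.124), those of Anxa6 and Anxa7 without either of them or Non-NE replicate 2, and that of Anxa7 also without Non-NE replicate 3. Without Non-NE replicate 1, Lgals9 was called higher at day 21 (log2 1.93, adjusted p = 0.000674) and S100a16 lower (log2 -0.74, adjusted p = 0.0206), and without Non-NE replicate 2, S100a10 was called lower (log2 -0.59, adjusted p = 0.0337).

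Whether the change over the YAP5SA days differed from the NE to Non-NE difference was tested as one contrast without NE replicate 2. It was called for 10 of 27 tested members, 5 in each direction, against 32.8% of 14820 genes. The contrast was signed: positive where the YAP5SA change lay above the Non-NE one, whichever was larger in size. It was positive in S100a14 (log2 10.61 with 4 Non-NE counts, adjusted p = 6.33e-07, edgeR), S100a1 (4.03, adjusted p = 0.000539), S100a13 (2.22, adjusted p = 0.0015) and Anxa11 (1.07, adjusted p = 0.00839). It was also positive in Lgals12, whose size is not given because Non-NE held 1 count. Anxa11 and Lgals12 were lower in Non-NE and not called at day 21. The contrast was negative in Lgals1 (log2 -11.62, adjusted p = 2.62e-06), Anxa1 (-5.08, adjusted p = 0.000859), Lgals8 (-1.66, adjusted p = 0.000418), Anxa5 (-1.58, adjusted p = 0.0178) and Anxa4 (-1.09, adjusted p = 0.0425). Of these, Anxa4 was lower at day 21 and not called in Non-NE. For Anxa1 the starting levels differed, with 3.77 and 0.213 CPM in NE replicates 1 and 3 and 75.2 and 72 CPM at day 0. Its day 21 and Non-NE levels were not called different (log2 0.09). Anxa2 (not called here) was called lower when any 1 Non-NE library was left out (adjusted p from 0.00722 to 0.0478), and so was S100a16 (0.0102 to 0.0448). With all 14 libraries the Anxa1 value was -1.43 (adjusted p = 0.549) and the Anxa4 value -0.74 (adjusted p = 0.226), neither called; with library totals alone Anxa4 was not called either (-0.92, adjusted p = 0.0801). The calls of Anxa4 and Anxa5 were each lost when 1 of 5 libraries was left out, those of days 0 and 21 among them (adjusted p from 0.052 to 0.132); the fifth was NE replicate 1 for Anxa5 and Non-NE replicate 3 for Anxa4.

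Summed over each family, the level moved by state. The 17 S100 genes summed to 98.7 ± 24.4 CPM in NE (SD, n = 3), 1643 ± 398 in Non-NE (n = 3), and 105, 659, 2128 and 1833 CPM on average at days 0, 3, 7 and 21 (n = 2 each). The annexins summed to 763 ± 171 CPM in NE, 5090.4 ± 1433 in Non-NE, and 947, 1693, 2995 and 3446 CPM over the days. The galectins summed to 70.7 ± 19.2 CPM in NE, 4321 ± 535 in Non-NE, and 92.9, 174, 539.8 and 463 CPM over the days. For S100 genes and galectins the highest day was day 7, and for annexins it was day 21. Per kilobase of annotated exon, the leading members of each group were these. In NE the mean levels of S100a1, Anxa4 and Anxa6 were 70.7, 61.8 and 50.5 CPM per kilobase, and their order was not stable: Anxa4 stood above S100a1 in NE replicate 1 (65.9 against 38) and replicate 2 (88.5 against 69.6), and below it in replicate 3 (31 against 105). At day 0 Anxa4 was above S100a1 in both libraries. In Non-NE, Lgals1 led at 4319 CPM per kilobase, ahead of all other members in each of the 3 libraries. S100a6 at 579, S100a11 at 559.7 and Anxa2 at 447 came next by their means, and their order differed between the libraries. At day 21, S100a11 led at 544 CPM per kilobase, followed by S100a1 at 478, S100a14 at 342 and S100a13 at 315, in the same order in both libraries.

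Genes that work with these families were described from fixed lists. Of 22 partners of S100 proteins and annexins, 11 of 18 tested were higher in Non-NE and none of them was called lower, where 20% of all genes tested were higher and 22.8% lower. From day 0 to day 21, 17 of 19 were higher and 1, Capn1, was lower, where 37.7% of all genes were higher and 34% lower. The 3 with the largest called change were Myof, Dysf and Ahnak. Myof, a membrane-repair ferlin, was at 0.109 to 0.32 CPM in NE and 548 to 745 in Non-NE, and at 0.0937 and 0.0925 CPM at day 0 and 254 and 271 at day 21. Dysf, another ferlin, was at 0 in NE and day 0, at 71.1 to 184 CPM in Non-NE and at 8.76 and 12.3 CPM at day 21. Ahnak, the scaffold bound by the S100A10 and annexin A2 complex, was at 1.64 to 24.2 CPM in NE and 762 to 1189.6 in Non-NE, and at 1.87 and 0.74 CPM at day 0 and 839.8 and 845 at day 21. All 3 were higher in Non-NE and at day 21, with no overlap between groups. Ager, which encodes RAGE, was chosen after its values were seen. It was at 1.07 to 4.06 CPM in NE and 1.49 to 4.67 in Non-NE, where it was not called, and at 4.5 and 5.18 CPM at day 0, 867 and 1159 at day 3, 4643 and 4209 at day 7, and 1684 and 2142 at day 21. As background, Ager is also a marker of alveolar type I cells.

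Of 22 galectin ligands and glycan-branching enzymes, 8 of 21 tested were higher and 3 lower in Non-NE, and 16 were higher and 5 lower at day 21. Of all genes tested, 42.8% were called in Non-NE, 20% higher and 22.8% lower. At day 21, 71.7% of all genes were called, 37.7% higher and 34% lower, and all 21 tested genes of this list were called. The 11 of 21 called in Non-NE lie near 42.8% only when both directions are counted together. Cd44, the hyaluronan receptor, was at 0.0966 to 0.328 CPM in NE and 274 to 557 in Non-NE; it was at 0.281 and 0 CPM at day 0, at most 0.305 CPM through day 7, and 42.5 and 22.6 at day 21. Itga5, the fibronectin receptor subunit, was at 2.12 to 31.9 CPM in NE, 190 to 1504 in Non-NE, 6.0 and 5.27 at day 0 and 121 and 130 at day 21. Muc1, a mucin, was at 77.9 to 113 CPM in NE, 0.244 to 0.992 in Non-NE, 94.0 and 100.2 at day 0 and 19.9 and 23.7 at day 21. Cd44 and Itga5 were higher and Muc1 lower in both comparisons, with no overlap between groups.

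Other EF-hand genes, calcium sensors and buffers outside the S100 family, were counted in the same way. Of 41 listed, 7 of 27 tested were higher and 8 lower in Non-NE, and 12 of 32 were higher and 15 lower at day 21. Of all genes tested 20% were higher and 22.8% lower in Non-NE, and 37.7% and 34% at day 21, so these counts lie near the background. Their median log2 change was -0.27 in Non-NE and -0.10 at day 21, against -0.02 and 0.02 for all genes tested. The neuronal channel subunit Kcnip2 went from 105 to 233 CPM in NE to 0 in all 3 Non-NE libraries, and from 229.9 and 237 CPM at day 0 to 24.3 and 23.3 at day 21. Efhd1 was at 0.375 and 0.37 CPM at day 0 and at 27.4 and 26.0 at day 21, and Cib2 at 6.75 and 8.24 CPM at day 0 and at 104 and 109 at day 21. Efhd1 and Cib2 rose from day 0 to day 21, and Kcnip2 fell in both comparisons. With Kcnip2, the largest called changes in Non-NE were those of Kcnip1 and Cabp1, both lower. Kcnip1 was at 94.3 to 171 CPM in NE and at most 0.165 CPM in Non-NE. Cabp1 was at 58 to 80.3 CPM in NE and at most 0.212 CPM in Non-NE.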

How the data were processed

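Poly(A)-selected RNA of 14 libraries was sequenced. The deposited table holds read counts per gene symbol, made by the authors with STAR 2.4.2 and featureCounts on mm10, per the submitters' processing notes. The annotation and any use of strand are not given in the sources used here, so overlapping genes on opposite strands cannot be told apart. On the same or the opposite strand, 9 members share exon bases with another gene. Groups came from the sample titles. Counts were tested with edgeR 4.0.16 (R 4.3.3): TMM scaling, filterByExpr, a robust quasi-likelihood F test, Benjamini-Hochberg adjustment over all genes of a fit, calls at an adjusted p under 0.05. Non-NE and NE formed one fit, the 4 days another, and the 13 libraries without NE replicate 2 the last. CPM are counts over TMM-scaled totals. A group at 0 was set to a floor of 3 counts over the group; ratios against 1 to 3 counts carry exact 95% counting intervals. The test was tried on simulated data. Members, lists and motifs were chosen with earlier results of these data known. Per-library values are given for members with at least 10 CPM in a group, and for the 3 list genes with the largest called change. All 14 columns were used. Exon lengths and positions are from GENCODE M21, promoters from RefSeq on GRCm38.p6. DESeq2 1.42.0 was an alternative.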

Additional observations from a re-analysis of the deposited data

Results flagged for a closer look

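S100a1 and S100a14 are set apart because both had called changes in opposite directions, lower in Non-NE than in NE and higher at day 21 than at day 0, and because the difference between those changes was itself called. The change from day 0 to day 21 exceeded the change from NE to Non-NE by 4.03 on the log2 scale for S100a1 (adjusted p = 0.000539, edgeR) and by 10.61 for S100a14 (adjusted p = 6.33e-07). For S100a1 the fall in Non-NE rests on a call that most single libraries can end. For S100a14 the Non-NE group held 4 counts, all in replicate 3, so the size of its difference is uncertain.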

How the results depend on the processing

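Of 117 called gene and comparison pairs among the members of at least 10 CPM, 76 were called under every alternative run, and none changed direction. One model over all libraries except NE replicate 2 called 11 members from day 0 to day 3, 12 from day 3 to day 7 and 3 from day 7 to day 21. Of its 14820 genes it called 1296, 1698 and 742 at these steps. Asking for a 2-fold change left 6 members in the last step, and 1782 of 13996 genes. Leaving out 1 library gave 20 to 22 members for Non-NE against NE, 17 to 19, 19 to 22 and 16 to 18 for the successive day steps, 21 to 22 for day 21 against day 0, 12 to 20 for day 21 against Non-NE and 8 to 13 for the difference of changes. It ended 13 pairs: besides those in the report, S100a6 from day 0 to day 3, Anxa5 and Anxa8 from day 3 to day 7, and S100a4, Anxa4 and Anxa7 from day 7 to day 21. With library totals alone, the median of all genes shifted to -0.28 log2 in Non-NE against NE, -0.12 from day 3 to day 7 and at day 21, 0.24 for day 21 against Non-NE and 0.30 for the difference. The share of called genes that were higher went from 46.7% to 33.9% in Non-NE and from 53.0% to 38.2% from day 3 to day 7; the members' splits were 16 higher and 5 lower, and 18 and 3. Whether the replicate numbers pair the libraries was not settled. Same-numbered NE and Non-NE deviations correlated at 0.06, -0.02 and 0.04, and those of days 7 and 21 at -0.21. With so few libraries in a group, such values cannot show that libraries are unpaired. With the numbers as a replicate block, 21, 19, 22, 19, 21, 16 and 13 members were called in the 7 comparisons, and a crossed pairing of days 7 and 21, added after seeing the data, called 19. The block ended the S100a1 call in Non-NE against NE (adjusted p = 0.0929) and that of Anxa6 in day 21 against Non-NE (0.0768), and made that of Anxa1 in Non-NE against NE (0.0355) and those of S100a16 (0.0151), Anxa2 (0.0331) and Anxa7 (0.0394) in the difference of changes. Counts near 0 in NE and at day 0, and in Non-NE for S100a14 and Lgals12, limit the size of the largest folds.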
